A study of Mus musculus with 10 samples.

Results

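Cytochrome c oxidase, complex IV of the respiratory chain, has nuclear subunits that exist in tissue isoforms, and 10 genes of these isoforms were measured here in mouse small cell lung cancer cells with and without stiripentol. The 10 genes are Cox6a1, Cox6a2, Cox4i1, Cox4i2, Cox7a1, Cox7a2, Cox7a2l, Cox8a, Cox6b1 and Cox6b2, found by their symbols among the 26335 rows of the deposited table, and all 10 were present. They were chosen because Cox6a2 rose strongly in these same libraries, so the values of all 10 genes between the groups are given as a description, with standard errors and intervals but no p-value or call. The cells were an mSCLC line, grown from a primary lung tumour of a genetically engineered mouse in which Adeno-Cre removes conditional alleles, Rb1 among them, so both groups came from 1 line and share its deletions. In the control group 5 samples received DMSO, the solvent, and in the other group 5 samples received stiripentol, an antiseizure medication, at 250 μM, both for 48 h, in RPMI with fetal bovine serum. The study asked how the drug acts on the respiratory chain, and RNA was sequenced to follow the genes of its complexes. The study states for all its experiments together that n counts independent samples from individual mice, while these samples came from 1 line and their labels do not name separate cultures. The p-values given for other genes measure the spread between these samples, which may be technical if the cultures were not separate.

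Complex IV takes electrons from cytochrome c and passes them to oxygen. Its catalytic core is encoded by mitochondrial DNA, and the nuclear subunits around the core assemble with it and tune its activity. Several of these subunits have a widely expressed isoform and a second one restricted to heart and skeletal muscle (Cox6a2, Cox7a1), to lung and oxygen-sensing tissue (Cox4i2) or to testis (Cox6b2), and a cell line from a lung tumour normally runs on the widely expressed set.

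Sequencing depth ran from 22375625 to 65299372 reads for control samples and from 55015760 to 60670901 for stiripentol samples. Control replicate 5 was the shallowest. Levels are log2 CPM, the reads of a gene scaled to the depth of its library, in which a gene without reads is listed at −4.82 or −4.74 depending on the library. Within each group the libraries fell into 2 sets. Controls 4 and 5 with stiripentol 1 and 2 are called the first set. Controls 1 to 3 with stiripentol 3 to 5 are called the second set. This match of control to stiripentol libraries follows their order in the study's own table and was not tested. Changes within a set, and their signs, can differ under another match. Libraries of a group correlated over genes at 0.983 to 0.997 within a set and at 0.920 to 0.939 between sets. The stiripentol samples were put into sets by this correlation, so for them the gap is built in. Because of the sets, the change within each set is given beside the values of the members and of the genes called in other lists. Of the markers of small cell lung cancer, 8 of 11 were in the table. They summed to 247 to 285 CPM in control and 184 to 277 CPM in stiripentol libraries, most of it from Ncam1 and Yap1. Ncam1 had 2627 to 6992 reads in control and 7280 to 9215 in stiripentol libraries, and Yap1 had 3230 to 11459 and 2978 to 6944. These genes moved in opposite directions, by 0.46 for Ncam1 and −0.87 for Yap1 on the log2 scale. Uchl1 had 33 to 175 reads in control and 45 to 157 in stiripentol libraries. Insm1 and Syp were nearly absent, with 0 to 10 reads of Insm1 and 2 to 20 of Syp per library. Rb1 had 252 to 487 reads in control samples and 402 to 1443 with stiripentol, but which exons its allele lacks is not given in the sources used here, so these reads do not check the deletion. The muscle markers, 8 of 12 in the table, summed to 4.57 to 16.4 CPM in control and 3.67 to 7.32 CPM in stiripentol libraries, most of it from Acta1 and Tnnt2. Acta1 had 22 to 611 reads in control samples and 61 to 198 with stiripentol, and Tnnt2 had 128 to 295 and 116 to 181. Ckm, muscle creatine kinase, was at 0 to 4 reads in control samples and 0 reads with stiripentol. Of 6 immune markers 2 were in the table. They summed to 4.13 to 17.9 CPM in control and 55.1 to 103 CPM in stiripentol libraries, nearly all from Cd68, while Ptprc, the pan-leukocyte marker, was at 0 to 3 reads and 0 reads. The 4 fibroblast markers summed to 333 to 488 CPM in control and 141 to 181 CPM in stiripentol libraries, the 2 endothelial markers to at most 0.5 and 0.886 CPM, and 2 of 3 brown fat markers to at most 0.0459 and 0.0167 CPM. The part of these markers in the results was not tested. In bulk RNA, fewer cells that express a gene and less RNA of it in each cell cannot be told apart.

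The muscle and the general isoform of a subunit are close enough to be read as relatives, and distant enough that a read can be assigned to one of them. The most alike 150 bases of the coding sequences of Cox6a2 and Cox6a1 (GENCODE M21 on GRCm38) are shown because the main change lay between these genes, and capitals mark the 48 bases that differ between them. The stretch is at coding bases 138 to 287 of Cox6a2 and 183 to 332 of Cox6a1.
Cox6a2: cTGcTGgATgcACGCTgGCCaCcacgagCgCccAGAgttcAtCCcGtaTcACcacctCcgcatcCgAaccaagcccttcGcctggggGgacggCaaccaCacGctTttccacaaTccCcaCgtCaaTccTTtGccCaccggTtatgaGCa
Cox6a1: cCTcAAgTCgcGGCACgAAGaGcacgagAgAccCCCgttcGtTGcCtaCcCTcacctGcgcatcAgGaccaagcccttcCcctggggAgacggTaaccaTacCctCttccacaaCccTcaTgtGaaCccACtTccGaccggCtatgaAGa
Over 294 aligned coding bases this pair is 64.6% identical, and the longest run that it shares is 12 bases. The same view of the other muscle isoform, Cox7a1 (coding bases 47 to 196), beside Cox7a2 (53 to 202) holds 46 differences.
Cox7a1: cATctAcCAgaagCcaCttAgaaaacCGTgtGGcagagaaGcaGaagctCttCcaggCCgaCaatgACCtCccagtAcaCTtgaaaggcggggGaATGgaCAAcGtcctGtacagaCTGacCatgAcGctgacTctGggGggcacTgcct
Cox7a2: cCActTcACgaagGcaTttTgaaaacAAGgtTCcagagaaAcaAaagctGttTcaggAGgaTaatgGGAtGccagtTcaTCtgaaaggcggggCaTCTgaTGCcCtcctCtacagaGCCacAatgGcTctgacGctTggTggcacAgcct
Identity was 62.6% over 243 bases for this pair, 69.2% over 490 bases for Cox4i2 and Cox4i1 and 64.6% over 257 bases for Cox6b2 and Cox6b1, and no shared run exceeded 14 bases. None of the 50-base words of a transcript of one isoform occurred in its partner.

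Words shared with other genes were found for 4 of the 10 genes. Of the Cox7a2l words, 203 of 1027 occur on the same strand in Gm6969, which itself had 1269 to 3858 reads in control and 3309 to 5359 with stiripentol, so the reads of Cox7a2l are uncertain. Of the Cox6a1 words, 64 of 522 occur in AC148174.2, which was not analysed here. On the opposite strand, 85 of 696 Cox4i1 words lie in Emc8 and 21 of 631 Cox6a2 words lie in Itgad. Whether strand was used in counting is not given in the sources used here, and without it reads from such overlaps cannot be told apart. Emc8 had 692 to 4633 reads in control and 879 to 1827 in stiripentol libraries, and Itgad was not analysed here.

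The sequences before the start sites differ in another way. RefSeq promoters (GRCm38.p6) were matched for 7 of the 10 genes. The 250 bases before the RefSeq start of Cox7a1, at chr7:30183921-30184170 on the plus strand, hold 4 CG dinucleotides, in capitals below. Those of Cox7a2, at chr9:79759854-79760103 on the minus strand, hold 14. Both sequences are shown as a muscle and general pair of which both promoters were matched.
Cox7a1: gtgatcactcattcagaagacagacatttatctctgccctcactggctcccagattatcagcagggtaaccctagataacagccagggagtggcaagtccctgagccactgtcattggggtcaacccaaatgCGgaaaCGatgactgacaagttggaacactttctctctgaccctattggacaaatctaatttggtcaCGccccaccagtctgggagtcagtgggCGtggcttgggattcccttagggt
Cox7a2: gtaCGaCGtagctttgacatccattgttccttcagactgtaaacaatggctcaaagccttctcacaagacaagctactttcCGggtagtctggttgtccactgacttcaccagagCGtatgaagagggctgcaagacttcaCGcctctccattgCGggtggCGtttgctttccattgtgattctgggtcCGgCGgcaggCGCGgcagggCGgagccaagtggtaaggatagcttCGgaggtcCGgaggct
Over all 32851 promoters of the table the median was 6 CG dinucleotides, 44.4% held 4 or fewer and 29.4% held 14 or more. The count was 26 for Cox6a1, 13 for Cox7a2l, 11 for Cox8a, 14 for Cox6b1 and 8 for Cox6b2, the testis isoform. The Cox7a2l stretch lies inside its GENCODE M21 gene, and those of Cox6a1, Cox7a1, Cox7a2 and Cox6b1 overlap the start of theirs. Of the 7 genes, Cox7a1 had the fewest.

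Cox6a2 encodes the heart and skeletal muscle form of subunit VIa, a subunit at the edge of complex IV that takes part in its regulation by nucleotides. The gene has 3 exons and lies at chr7:128205435-128206387 on the minus strand (GENCODE M21). In control samples 1 to 5 it had 49, 36, 49, 7 and 4 reads. In stiripentol samples 1 to 5 it had 359, 355, 397, 507 and 357 reads. Every stiripentol sample was above every control sample, and the 2 lowest samples of all were the controls of the first set. On the log2 CPM scale the level was −1.25 ± 1.15 in control and 2.76 ± 0.203 in stiripentol samples (SD, n = 5 each). The difference was 4.00 with a standard error of 0.486 (95% interval 2.93 to 5.08), a fold of 16.0. In plain CPM the mean went from 0.486 ± 0.318 to 6.77 ± 1.02. The change was 5.08 in the first and 3.28 in the second set, where the level of the controls was 2.06 lower in the first set than in the second. Leaving out 1 library at a time gave changes of 3.63 to 4.24. With CPM + 1 in place of the deposited prior it was 2.41, a scale that compresses genes of few reads.

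Among the 12306 genes that passed the filter of the fit, an average log2 CPM above 0, Cox6a2 ranked 8 by the size of its rise. It passed that filter only through the stiripentol samples. The genes next to it in rank were Sspo and Gsta3, with changes of 4.56 and 4.07, and Atp2a3 and Arhgap33, with 3.76 and 3.57.

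Cox6a1 is the partner that most tissues use for subunit VIa, and its coding sequence is the second of the first pair shown above. Its gene is at chr5:115345642-115348981. Control samples 1 to 5 had 9469, 7848, 10002, 7376 and 2324 reads, and stiripentol samples 1 to 5 had 7648, 7176, 10115, 10286 and 9342 reads. The groups overlapped. On the log2 CPM scale it was 7.02 ± 0.242 in control and 7.24 ± 0.254 in stiripentol samples (SD, n = 5 each), a difference of 0.22 (SE 0.153) with a 95% interval of −0.12 to 0.56, and it was 0.19 and 0.24 in the 2 sets.

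Beside Cox6a1, Cox6a2 was a small share of subunit VIa RNA in both groups. Within each library, the share of Cox6a2 among the reads of both genes was 0.515%, 0.457%, 0.488%, 0.0948% and 0.172% in control samples 1 to 5. In stiripentol samples 1 to 5 it was 4.48%, 4.71%, 3.78%, 4.70% and 3.68%. The lowest stiripentol share lay above the highest control share. The means were 0.345% ± 0.196 and 4.27% ± 0.504 (SD, n = 5 each), and 0.356% and 4.40% per length of the exons. On the log2 scale Cox6a2 minus Cox6a1 was −8.27 ± 0.943 in control and −4.49 ± 0.182 in stiripentol samples. Cox6a1 had more reads than Cox6a2 in every sample of both groups. The sum of both genes was 132 ± 21.8 CPM in control and 160 ± 26.7 CPM in stiripentol samples.

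**Figure D1:**
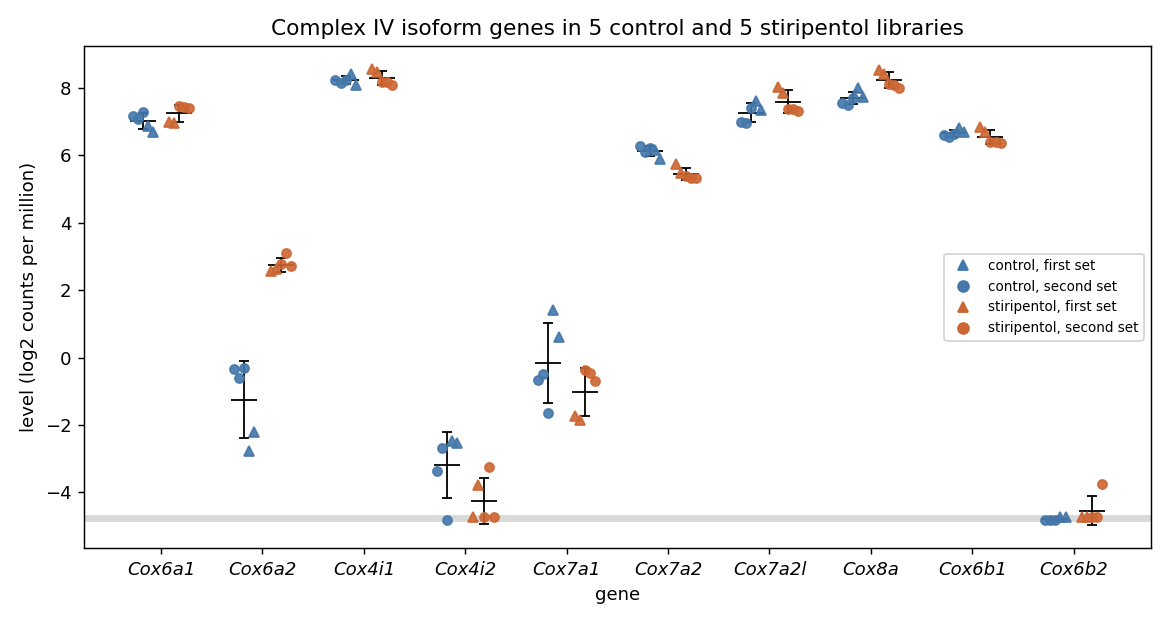
Level of each of the 10 genes in log2 CPM (vertical axis) by gene (horizontal axis), with 1 point per library, control in blue and stiripentol in orange, triangles for the first and circles for the second set of libraries. Black marks are the mean ± SD of 5 libraries and the grey band marks genes without reads: Cox6a2 stood at −1.25 in control and 2.76 in stiripentol samples, and Cox6a1 at 7.02 and 7.24.

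Cox7a1 is the other heart and muscle isoform measured, of subunit VIIa (chr7:30184144-30186078). Control samples 1 to 5 had 39, 39, 18, 166 and 33 reads, and stiripentol samples 1 to 5 had 16, 14, 43, 41 and 32 reads. The 2 controls of the first set were the highest of all 10 samples on the log2 CPM scale, at 1.40 and 0.60. The 2 stiripentol samples of the same set were the lowest, at −1.73 and −1.84. Its level was −0.16 ± 1.18 in control and −1.02 ± 0.713 in stiripentol samples, below the filter. The difference between the groups was −0.86, but it was −2.79 in the first and 0.43 in the second set. These signs hold for the sets as matched here, and the match was not tested. Cox7a1 and Cox6a2, both muscle isoforms, did not move alike: where the first-set controls were lowest for Cox6a2, they were highest for Cox7a1. Of all genes tested, 37.0% had changes of opposite sign in the 2 sets as matched here.

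Cox7a2, the widely expressed form of subunit VIIa (chr9:79755361-79759878), is the member with the clearest lower values. Control samples 1 to 5 stood at 6.27, 6.11, 6.22, 6.15 and 5.91 log2 CPM. The stiripentol samples stood at 5.76, 5.47, 5.37, 5.32 and 5.32. The groups did not overlap. The difference was −0.68 (SE 0.121, 95% interval −0.95 to −0.42), and it was −0.42 in the first and −0.86 in the second set. The share of Cox7a1 in the reads of the pair was 1.61% ± 1.32 in control and 1.18% ± 0.623 in stiripentol samples, with overlapping groups, and the difference between both genes changed by −2.37 in the first and by 1.29 in the second set. Their summed level was 71.4 ± 6.34 CPM in control and 44.4 ± 5.78 CPM in stiripentol samples.

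Cox7a2l, also known as SCAF1, is a relative of Cox7a2 that joins complex III to complex IV in respiratory supercomplexes (chr17:83501918-83517330). Its level was 6.97 to 7.62 in control, with a median of 7.36, and 7.33 to 8.04 in stiripentol samples, with a median of 7.38. The groups overlapped. The difference was 0.33 (SE 0.181), 0.46 in the first and 0.24 in the second set. Since part of its transcript is shared with Gm6969, this value may mix both genes.

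Cox8a, the general form of the small subunit VIII (chr19:7215153-7217616), had the highest level per kilobase of exon, but not in plain CPM. It was at 7.57, 7.51, 7.69, 7.99 and 7.73 log2 CPM in control samples 1 to 5. In stiripentol samples 1 to 5 it was at 8.53, 8.41, 8.12, 8.10 and 8.00. The groups did not overlap, although the lowest stiripentol value, 7.9966, and the highest control value, 7.9920, were almost equal. The difference was 0.54 (SE 0.133, 95% interval 0.24 to 0.83), with 0.61 and 0.48 in the 2 sets. Its muscle isoform Cox8b was not analysed here.

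Cox4i1 is the general form of subunit IV, the largest nuclear subunit (chr8:120668222-120674207). It was at 8.22, 8.16, 8.25, 8.41 and 8.09 log2 CPM in control samples 1 to 5. In stiripentol samples 1 to 5 it was at 8.57, 8.47, 8.19, 8.18 and 8.09. The difference was 0.07 (SE 0.116, 95% interval −0.19 to 0.33), with overlap, 0.27 in the first and −0.06 in the second set. Cox4i2, its lung and oxygen-sensitive isoform (chr2:152754173-152765037), had 0 to 9 reads per control sample and 0 to 4 per stiripentol sample, 23 and 6 reads in all. Control samples 1 to 5 had 4, 7, 0, 9 and 3 reads, and stiripentol samples 1 to 5 had 0, 2, 0, 4 and 0. The groups overlapped, with the 2 highest counts, 7 and 9 reads, in control samples, and a count of 0 allows up to 3 reads. The difference was −1.08 on the log2 CPM scale, −1.76 in the first and −0.63 in the second set. The share of Cox4i2 in the pair was at most 0.0491% in any library.

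Cox6b1, the general form of subunit VIb at the side that meets cytochrome c (chr7:30616861-30626151), was at 6.65 ± 0.102 log2 CPM in control and 6.54 ± 0.215 in stiripentol samples. The difference was −0.11 (SE 0.118), with overlap, 0.03 in the first and −0.20 in the second set. Cox6b2, its testis isoform (chr7:4751792-4753094), had 0 reads in every control sample and 2 reads in 1 stiripentol sample, replicate 5. Each count of 0 allows up to 3 reads, so the 2 reads are not a difference.

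**Figure D2:**
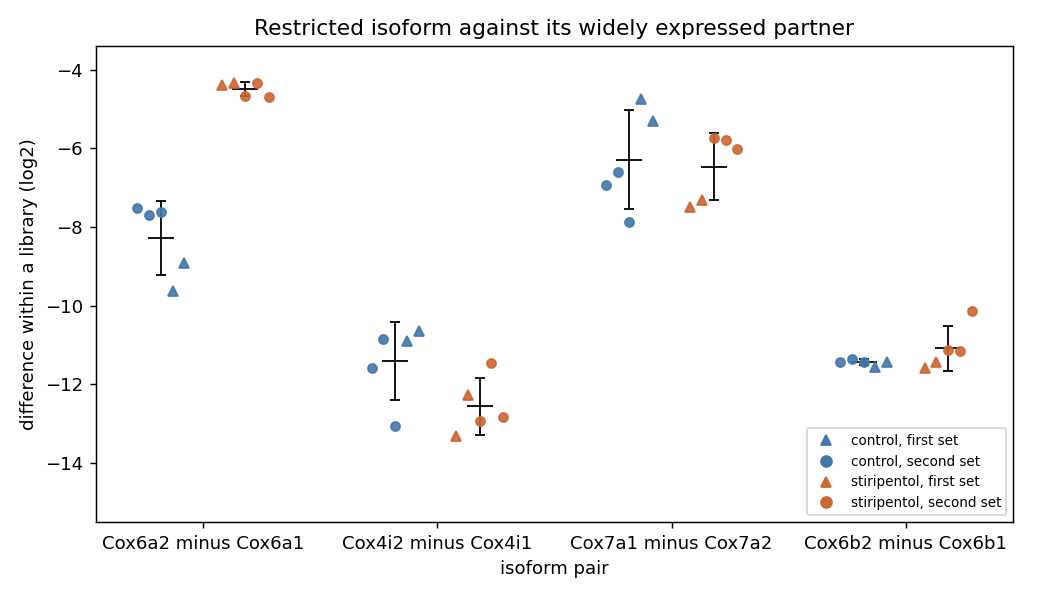
Level of the restricted isoform minus that of its widely expressed partner within each library, in log2 units (vertical axis), for the 4 pairs (horizontal axis), with colours, symbols and black mean ± SD as in the plot of the 10 genes. Cox6a2 minus Cox6a1 went from −8.27 to −4.49 without overlap of the groups, while the other 3 pairs overlapped. Cox7a1 minus Cox7a2 moved apart by set, with the sets as matched here.

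Compared per length, as mean CPM per kilobase of exon, the order in control samples was Cox8a at 338 ± 45.6, Cox4i1 at 194 ± 16.5, Cox6a1 at 187 ± 30.7, Cox6b1 at 142 ± 10.2, Cox7a2l at 106 ± 20.5 and Cox7a2 at 74.5 ± 7.01. The restricted isoforms followed, with Cox7a1 at 2.11 ± 1.75, Cox6a2 at 0.715 ± 0.467, Cox4i2 at 0.116 ± 0.0763 and Cox6b2 at 0 (SD, n = 5 each). Cox4i1 and Cox6a1 lay within their spread of each other, and so did Cox7a1 and Cox6a2. With stiripentol the general isoforms were at 491 ± 79.3 for Cox8a, 218 ± 37.0 for Cox6a1, 205 ± 30.2 for Cox4i1, 134 ± 31.8 for Cox7a2l, 133 ± 20.4 for Cox6b1 and 46.5 ± 6.30 for Cox7a2. Cox6a2 was at 9.96 ± 1.49, Cox7a1 at 0.940 ± 0.441, Cox4i2 at 0.0257 ± 0.0381 and Cox6b2 at 0.00656 ± 0.0147. Cox6a1 and Cox4i1 again lay within their spread, as did Cox7a2l and Cox6b1. Cox6a2 and Cox7a1 did not overlap with stiripentol, while every general isoform was above every restricted one in both groups. If the libraries were made from 3′ ends, as the study's methods have it, reads do not scale with length and this order is approximate. In plain CPM, Cox4i1 was above Cox8a, at 301 against 209 in control samples. With stiripentol they were at 317 and 304, within their spread. The exon length used was 1550 bases for Cox4i1 and 619 for Cox8a, while the transcripts Cox4i1-201 and Cox8a-201 have 745 and 550.

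In the limma fit over all 12306 genes, 7 of the 10 genes could be tested, since Cox4i2, Cox7a1 and Cox6b2 were below the filter. Of the 7, Cox6a2 and Cox8a had every stiripentol sample above every control sample and Cox7a2 had every one below, against 13.0% and 14.3% of all genes tested. Because the genes were chosen on this contrast, nothing is read from these counts and no calls are given for them. Over all genes tested, 13.6% were called higher and 14.1% lower at an adjusted p under 0.05, which is the background for the lists below.

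**Figure D3:**
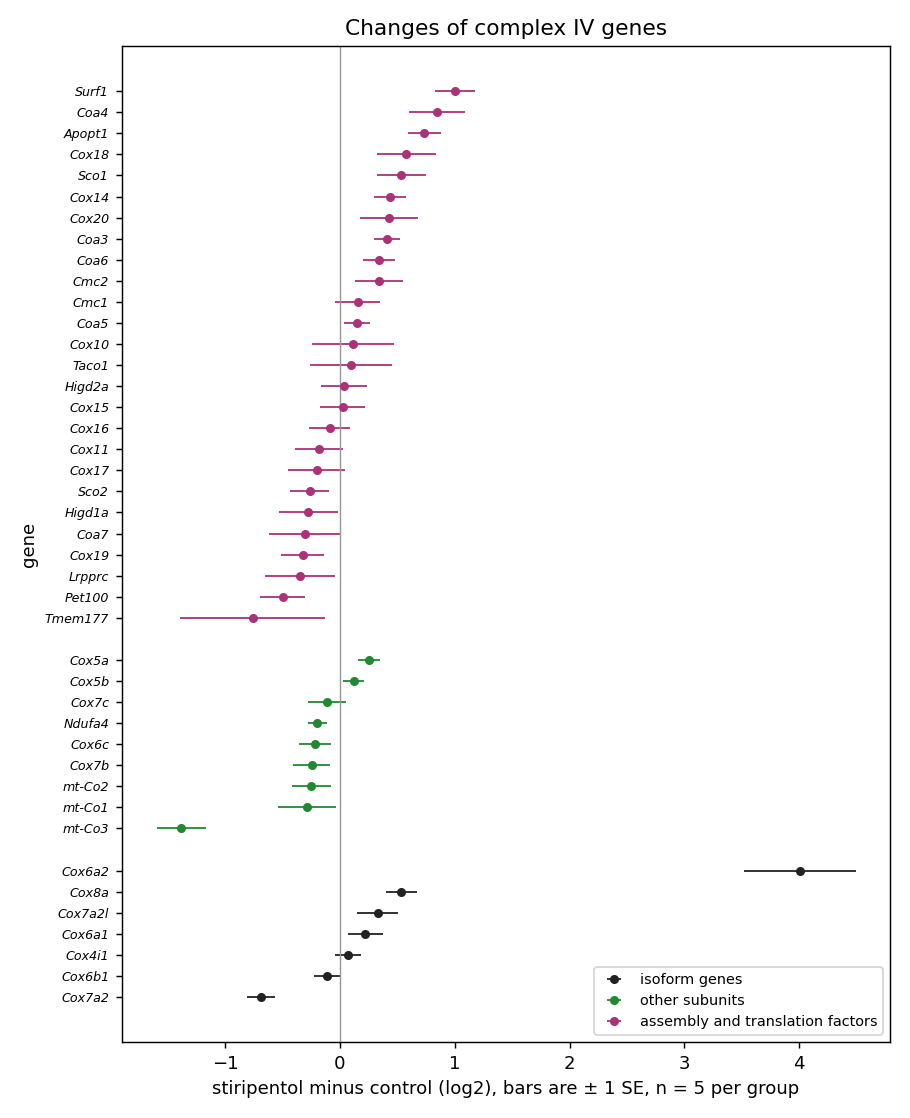
Stiripentol minus control in log2 units (horizontal axis, ± 1 SE, n = 5 per group) for the tested genes of complex IV (vertical axis), in black the isoform genes, in green the other subunits and in purple the assembly and translation factors. Cox6a2 stands at 4.00, with all other genes between −1.38 for mt-Co3 and 1.00 for Surf1.

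The other subunits of complex IV give the frame for these isoforms, and 9 of the 12 listed were in the table. None was called higher, 1 was called lower and 8 were not called, with a median change of −0.22 against −0.06 over all genes tested. By limma at an unadjusted p under 0.05, 1 was higher and 2 were lower, and limma voom on the recovered reads called 0 higher and 1 lower. The called gene was mt-Co3, the mitochondrially encoded core subunit III, which fell by 1.38 on the log2 scale (SE 0.215, limma adjusted p = 0.00159). It was lower by 1.79 in the first and by 1.11 in the second set (log2 changes of −1.79 and −1.11). The core subunits mt-Co1 and mt-Co2 had changes of −0.28 (limma adjusted p = 0.417) and −0.25 (limma adjusted p = 0.296). For mt-Co1 the sign differed between the sets as matched here, with 0.49 in the first and −0.80 in the second. The changes of mt-Co2 were −0.43 and −0.12. Cox5a, which binds the matrix side of the enzyme, had 0.25 (limma adjusted p = 0.0666), and Cox5b, the zinc-binding subunit, had 0.12 (limma adjusted p = 0.353). Cox6c, Cox7b, Cox7c and Ndufa4, a subunit once assigned to complex I, had changes of −0.22, −0.24, −0.11 and −0.19, none of them called. Cox7b2 and Cox8c, further restricted isoforms, were not analysed here.

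Factors that build complex IV were measured for all 27 listed genes, of which 26 could be tested. Called higher were 5 of the 26 and called lower none (1 at an unadjusted p under 0.05 and 0 by limma voom), with a median change of 0.11. Surf1, an assembly factor for the first core subunit, rose by 1.00 (SE 0.173, limma adjusted p = 0.00259), and Apopt1, listed today as Coa8, rose by 0.74 (SE 0.143, limma adjusted p = 0.00452). Coa4 rose by 0.84 (limma adjusted p = 0.0279), Cox14 by 0.44 (limma adjusted p = 0.0372) and Coa3 by 0.41 (limma adjusted p = 0.0224). Cox14 and Coa3 act together in the synthesis of the first core subunit. In the first and second sets the changes were 0.69 and 1.21 for Surf1, 0.86 and 0.65 for Apopt1 and 0.58 and 0.34 for Cox14. Those of Coa4 were 0.12 and 1.32 and those of Coa3 were 0.17 and 0.57, and neither gene was called in the first set alone. The number of calls was 2 without control 1, without control 2, without stiripentol 3 or without stiripentol 4, and 3 without control 3. Sco1, a copper chaperone for the second core subunit, had 0.54 (limma adjusted p = 0.0815). Pet117, below the filter, had 0 to 6 reads in control samples and 0 to 227 with stiripentol, with the reads in libraries of the first set.

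**Figure D4:**
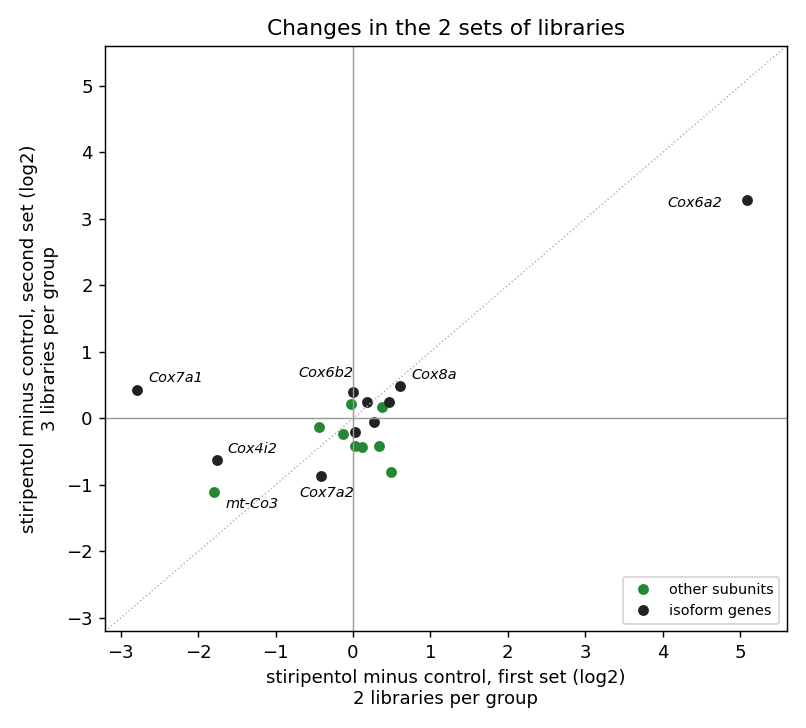
Change in the first set of libraries (horizontal axis, log2, 2 libraries per group) against that in the second set (vertical axis, log2, 3 libraries per group), black for the 10 isoform genes and green for 9 other subunits, with equality dotted. Cox6a2 at 5.08 and 3.28 and mt-Co3 at −1.79 and −1.11 had the same sign in both sets, and Cox7a1 at −2.79 and 0.43 did not. The match of control to stiripentol libraries within a set was not tested.

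Other mitochondrial proteins with a muscle, brain, testis or brown fat isoform were looked at as a list of 17 genes, 13 of them in the table and 7 of them tested. None was called higher (0 at an unadjusted p under 0.05 and 0 by limma voom) and 2 were called lower, with a median of −0.07. These were Cpt1c, the brain form of carnitine palmitoyltransferase, which fell by 1.16 on the log2 scale (SE 0.319, limma adjusted p = 0.0216), and Ucp2, an uncoupling protein homologue, which fell by 0.40 (limma adjusted p = 0.0389). Cpt1c changed by −0.13 in the first and −1.85 in the second set and was not called in the first set alone, while Ucp2 changed by −0.34 and −0.43. The count was 0 without control 1, 2 or 3, and 1 without stiripentol 1, 2, 3 or 5. Slc25a4, the heart and muscle form of the adenine nucleotide carrier, had −0.23 (limma adjusted p = 0.0546), and Slc25a5, its general form, had −0.07 (limma adjusted p = 0.85). Cpt1b, the muscle form, had 15 to 45 reads in control samples and 9 to 85 with stiripentol.

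Most striated muscle genes had few reads in both groups. Of 38 listed genes 33 were in the table and 5 passed the filter, with 1 called higher, 0 lower (1 at an unadjusted p under 0.05 and 0 by limma voom) and a median change of −0.0039. Des, desmin, the muscle intermediate filament, rose by 1.08 (SE 0.351, limma adjusted p = 0.0423), and this call was lost without any one of controls 1 to 3 or of the 5 stiripentol samples. Its change was 0.14 in the first set, where it was not called, and 1.70 in the second. Acta1, skeletal actin, had −0.0039 (limma adjusted p = 0.997), with −2.93 and 1.95 in the 2 sets. Of the 28 genes below the filter, Mb, myoglobin, had 0 to 7 and 1 to 2 reads, and Myh7, the slow and cardiac myosin heavy chain, had 0 to 9 and 0 to 8 reads in control and stiripentol samples. Casq1, the skeletal calcium store protein, had 45 to 86 reads in control samples and 2 to 12 with stiripentol, the opposite direction to Cox6a2, and was named after its values were seen.

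Genes that regulate muscle or oxygen-sensitive isoforms were a list of 21, with 17 in the table and 14 tested. Called higher were 4 and lower 2, with a median change of 0.17. Of the myocyte enhancer factors, which drive muscle genes, Mef2b rose by 1.85 (SE 0.482, limma adjusted p = 0.0178), at 55 to 255 reads in control samples and 314 to 766 with stiripentol, with changes of 1.56 and 2.05 in the first and second sets. With the replicate block Mef2b was not called. Mef2d rose by 0.33 (limma adjusted p = 0.0367), 0.54 in the first and 0.18 in the second set, and lost its call in the second set alone and without any one of controls 1, 2, 4 and 5 or stiripentol 1, 2, 4 and 5. Mef2a had 0.34 (limma adjusted p = 0.0564). Nrf1, a regulator of nuclear respiratory genes, rose by 0.42 (limma adjusted p = 0.0261), 0.71 and 0.22 in the 2 sets, and lost its call without control 3 or 4 or stiripentol 1 or 2. Lonp1, the mitochondrial matrix protease known to degrade Cox4i1, rose by 1.12 (SE 0.225, limma adjusted p = 0.00544), 1.81 in the first and 0.65 in the second set. Epas1, the hypoxia factor HIF-2α, fell by 3.15 on the log2 scale (SE 0.552, limma adjusted p = 0.00276), with changes of −3.00 and −3.25 in the 2 sets. Chchd2, a co-regulator of Cox4i2, fell by 0.36 on the log2 scale (limma adjusted p = 0.0304), with −0.26 and −0.43 in the 2 sets, and lost its call in the first set alone and without control 1, 2 or 3 or stiripentol 1, 2 or 5. Rbpj, which binds with it, had −0.75 (limma adjusted p = 0.108) and Cxxc5, a repressor at the same promoter, had −0.63 (limma adjusted p = 0.197). Hif1a had 0.01 (limma adjusted p = 0.97) and Ppargc1a, the coactivator of mitochondrial biogenesis, had 0.66 (limma adjusted p = 0.103). Without stiripentol 2, 3 genes of this list were called. The muscle determination factors Myod1, Myf5, Myog and Myf6 were not analysed here.

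None of the measured genes around Cox6a2 on chromosome 7 was called higher (RefSeq order, GRCm38). Itgad, an integrin of myeloid cells on the other strand, overlaps the end of Cox6a2 by 70 bases, and neither Itgad nor Gm39091 was analysed here. 4931431B13Rik had at most 2 reads and Tgfb1i1 at most 5 reads in any library. Armc5 fell by 0.65 on the log2 scale (SE 0.207, limma adjusted p = 0.04), with changes of −0.70 and −0.61 in the 2 sets, and lost its call without any one of controls 1 to 3 or stiripentol 1 to 3. 9130023H24Rik had −1.79 (limma adjusted p = 0.215), with −4.37 in the first and −0.07 in the second set.

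Over the 10 libraries, the tested genes whose log2 CPM ran most closely with that of Cox6a2 were Cdk11b (Pearson r = 0.991), Mrps18b (0.989), Tm9sf4 (0.988), Usp39 (0.987) and 6820431F20Rik (0.985). These points share the split into groups and sets, and the values are a description over 10 libraries. Their differences between the groups were smaller than that of Cox6a2, from 0.45 for Tm9sf4 to 1.05 for Usp39, a splicing factor. The difference was 0.72 for Mrps18b, a protein of the mitochondrial ribosome, whose level was 5.56 ± 0.247 log2 CPM in control and 6.29 ± 0.0466 in stiripentol samples (SD, n = 5 each).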

How the data were processed

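RNA from 5 control and 5 stiripentol samples was analysed from 1 table. The authors deposited log2 CPM, a level scaled to the depth of each library, for 26335 rows, and beside them their group means, ratios and test results, which were not used. The submitters' notes name mm10, and the methods name GENAVi for CPM. The aligner, counter and annotation are not given in the sources used here. The methods name a 3′ library kit and the labels a total RNA kit. Whole reads were recovered from 100% of the values (tolerance 0.1 read), with a prior of 0.837 to 2.38 reads. Limits of 0 cover counting error only. The 95% intervals come from the fit and cover the spread between samples, without allowance for choosing the members on this contrast. Of the symbols, 42 were repeated and 13 were numbers.

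The deposited log2 values were fitted with limma 3.58.1 in R 4.3.3 (mean-variance trend, no covariate) over 12306 genes whose log2 CPM averaged above 0, with Benjamini-Hochberg adjustment. The fit was tested on simulated counts without sets of libraries, so that test does not cover the split into sets. The members and lists were chosen with earlier results of these data known. Named are all members, the called genes of each list, its genes that a description needs, 3 genes on each side of Cox6a2 and the 5 genes most correlated with it. Sco1, Pet117, Slc25a4, Slc25a5, Cpt1b, Acta1, Mb, Myh7 and Casq1, and the genes next to Cox6a2 in rank, were named after their values were seen. One marker and one allele are not reported here. Sample numbers are those of the labels. Controls were put into sets by the value of genes without reads, and stiripentol samples, which share that value, by correlation. The study's own table lists controls 4 and 5 and stiripentol 1 and 2 first in their groups. The sets are matched across the groups in that order, and this match was not tested. Exon lengths, transcripts and coding sequences are from GENCODE M21. Alternatives were each library left out, the replicate number as a block, other scalings, pseudocounts, filters, each set of libraries, a set term, means per set and limma voom. Python 3.11.15, pandas 2.3.3 and Biopython 1.88 were used.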

Additional observations from a re-analysis of the deposited data

Results flagged for a closer look

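In 30 groups of 5 values (levels and isoform differences of the members, and totals), a single value far from the other 4 was looked for, and chance gives about 1.5 in 30. Cox6b2 stood at −3.76 log2 CPM in stiripentol sample 5, where it had 2 reads, against 0 reads in the other samples. With the other 4 values equal, any read would be flagged, so the rate by chance does not apply to this value. The total of control sample 5 was 22375625 reads, below the other 4 controls. Without it the change of Cox6a2 was 3.76.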

How the results depend on the processing

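Over all genes, 1740 were called lower and 1674 higher, and the counts of lower and higher calls were 1062 and 1020 with the replicate block, 5726 and 3158 in the first set alone, 3322 and 4637 in the second set alone, 3336 and 2908 with a term for the set, and 890 and 404 at an absolute log2 change of at least 1. With 1 mean per group and set, limma called 0 genes in either direction and in every list (1122 of 12284 genes at an unadjusted p under 0.05), with so few values left. Leaving out 1 library gave 1171 to 1802 lower and 1218 to 1706 higher. Calls among the other subunits (1) were 5 in the first set, 8 in the second and 3 with a set term. Assembly factors (5) had 16, 17 and 11 in these settings, 1 at a log2 change of 1, and 2 to 5 without 1 library. Other tissue isoforms (2) had 6 in the second set, 4 with a set term, and 1 with the replicate block, median-of-ratios scaling, no filter or a log2 change of 1, and 0 to 2 without 1 library. Muscle genes (1) had 3 in each set and with a set term, 0 with the replicate block, and 0 to 1 without 1 library. Regulators (6) had 3 at a log2 change of 1, and 3 to 6 without 1 library.

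The change of Cox6a2 minus Cox6a1 (3.78) was 2.19 with CPM + 1, 4.90 in the first and 3.04 in the second set, and 3.45 to 3.97 without 1 library. Cox4i2 minus Cox4i1 (−1.15) was −0.17 with CPM + 1, −2.02 in the first set and −1.56 to −0.96 without 1 library. Cox7a1 minus Cox7a2 (−0.17) was −2.37 and 1.29 in the first and second sets, and −0.57 to 0.22 without 1 library. Cox6b2 minus Cox6b1 (0.35) was 0.11 to 0.47 without 1 library. Replicate numbers of the labels did not pair the samples: deviations of same-numbered samples correlated at −0.24 to 0.0612, with a mean of −0.152. The study's own table numbers the controls in another order, with controls 4 and 5 of this text before the others. Pairing by that order was not tested, and the replicate block used the label numbers. In this balanced design the replicate block leaves the estimated change as it is and alters its error. Of the other genes named, Surf1, Lonp1, Epas1 and mt-Co3 lost their call in 1 of 23 alternatives, and Mef2d in 14, Cox14 in 13, Des and Ucp2 in 12, Armc5 and Chchd2 in 11. The median change over all tested genes was −0.06 as deposited and 0.05 after quantile normalization, and no member changed sign after quantile normalization or median-of-ratios scaling. Few reads limit Cox4i2, Cox6b2 and Cox7a1. Except where the construction shows it, the cause of these shifts was not tested.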
